A study of Homo sapiens with 6 samples.

Results

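The subunit genes of RNA polymerase II, Mediator and Integrator were examined for their RNA level and transcript make-up in HCT116 cells given auxin. Protein-coding genes of GENCODE release 29 were taken where the symbol was POLR2A to POLR2M, MED or INTS with a number and an optional L, CDK8 or CCNC. The symbols matched 60 of the 58780 human genes in the tables, which include 19969 protein-coding genes. They comprised 13 genes of RNA polymerase II, 32 of Mediator and 15 of Integrator. The symbols set the choice without a threshold on any measured value, but earlier results of these data were known when it was made.

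HCT116 is a human colorectal carcinoma cell line, and the labels name no other genotype or allele. One group of 3 libraries came from cells held for 16 h in auxin, a plant hormone that makes tagged proteins break down in cells with a degron system. The other 3 came from cells given DMSO, the solvent, for a time that the labels do not state. The protein that auxin acts on here, the tagged clone and any effect of auxin on untagged cells are not given in the sources used here.

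RNA polymerase II is the enzyme that makes messenger RNA and many small non-coding RNAs. Mediator is the large complex that bridges activators bound at enhancers and the polymerase at the promoter. Its head and middle modules touch the polymerase, its tail receives most activators, and a detachable kinase module controls its access to the polymerase. Integrator binds polymerase paused near the start of genes, cuts the nascent RNA with its own endonuclease and brings in the phosphatase PP2A. It also forms the ends of spliceosomal small nuclear RNAs.

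Sequencing was paired-end from total RNA depleted of ribosomal RNA, and expected counts summed to between 234037969 and 625895062 per library. Replicate 1 was the deepest in both groups. Of the 7 colorectal epithelial markers, EPCAM, CDH1, KRT8, KRT18 and KRT19 were above 1 TPM after scaling to protein-coding genes, and CDX1 was listed at 0. The summed level of the epithelial list was 3171 to 3679.7 in DMSO and 4136 to 4658 in auxin, and all 5 detected genes were called higher. The 3 fibroblast markers summed to 2.41 to 4.05 in DMSO and 1.004 to 2.36 in auxin, with COL1A1 above 1 and not called. The 3 endothelial markers summed to below 1 in every library. The summed level of the 3 leukocyte markers was 73.8 to 102 in DMSO and 20.02 to 33.6 in auxin, with PTPRC and CD3E listed at 0 in all 6 libraries and CD68 as the gene detected; the part of these shifts in the results was not tested. Libraries are labelled as biological replicates, and no further source of each culture is given.

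After 16 h in auxin some subunit genes held far less RNA than in DMSO, among them POLR2A, MED24, MED25, MED15 and INTS3, and others of the same complexes were slightly higher or were not called. In edgeR's quasi-likelihood test, 20 of the 60 members fell and 12 rose at an adjusted p under 0.05, and 28 were not called; the 32 called compare with 52.3% of all genes. Of all 19725 genes tested, 26.9% were called lower and 25.4% higher, and of the 14154 protein-coding ones 33.4% and 27.8%. The members' shares, 33.3% lower and 20.0% higher, were near these. The drops were the larger changes. No member rose by 2-fold or more, where 6.55% of all genes and 4.80% of protein-coding genes did. At least 2-fold drops were called in 12 members, which is 20.0%, against 13.3% of all genes and 16.04% of protein-coding genes. The median log2 fold change was -0.029 over the members and 0.025 over all genes. All 20 genes that fell were lower in 3 of 3 same-numbered pairs, and all 12 that rose were higher in 3 of 3. These pairs use the libraries that gave the calls. Some members not called, such as INTS6 and INTS13, also went the same way in all 3 pairs. The CPM ranges of the groups did not overlap for 34 members, compared with 60.3% of all genes. In bulk RNA, fewer cells of a type and less RNA per cell cannot be told apart, and every level is relative to the rest of the library.

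Each complex held genes of both kinds. RNA polymerase II had 5 genes that fell and 1 that rose, Mediator 11 and 6, and Integrator 4 and 5. With the replicate number as a block the test called 27 members lower and 20 higher, over a background of 34.4% and 35.5%, and kept all 20 and all 12. The split of calls moved with the scaling: upper-quartile factors, which shifted the median of all genes by 0.12 on the log2 scale, gave 19 lower and 20 higher. Offsets corrected for GC content gave 22 lower and 8 higher. With limma on log2(TPM + 1), which shifted that median by -0.14, 12 members were called lower and 0 higher. None of the 12 rises was called on that scale, the smallest limma adjusted p being 0.201, for INTS14. The shares of all genes called with these scalings are not given here. Whether the members moved apart from other genes was not tested.

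**Figure D1:**
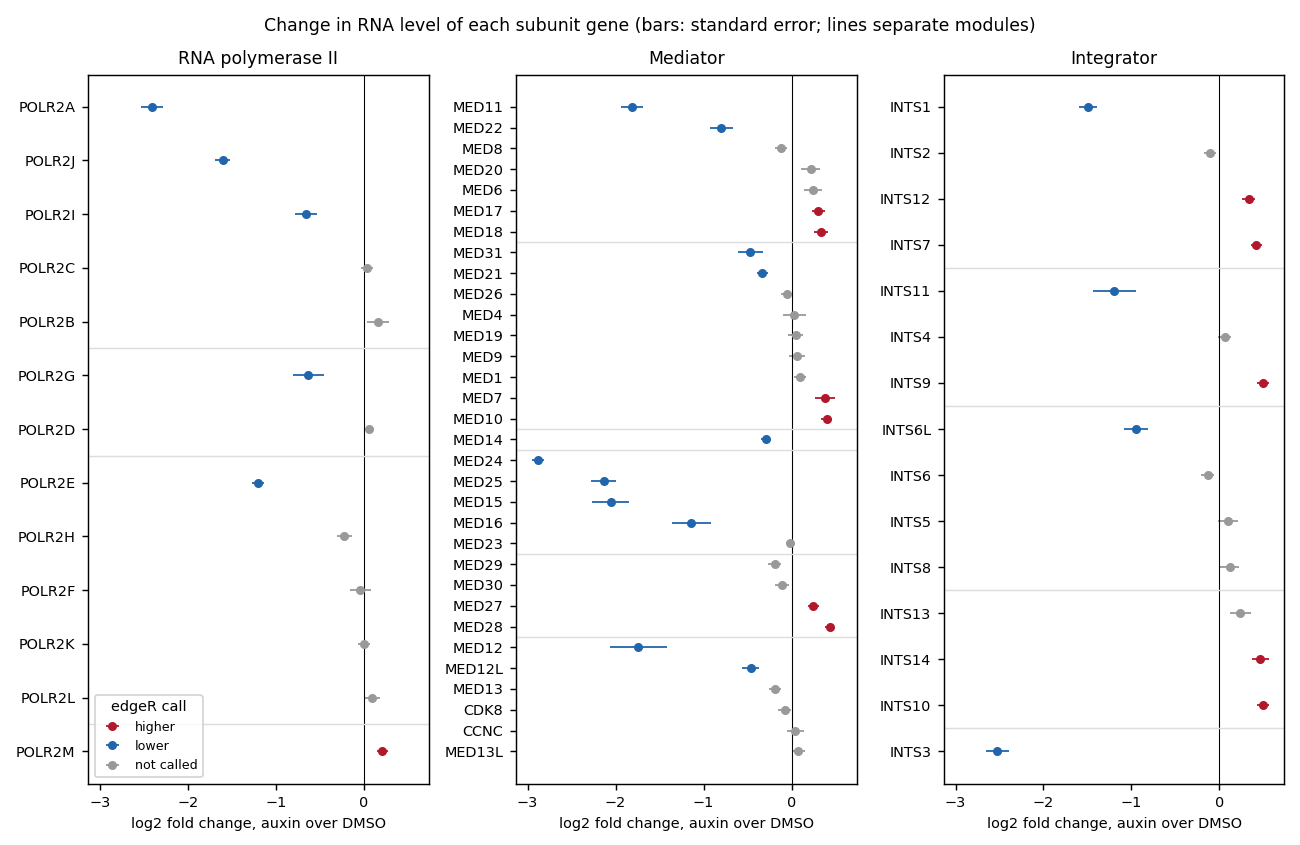
Log2 fold change, auxin over DMSO, of each of the 60 members with its standard error, in 3 panels by complex, with members grouped by module and coloured by the edgeR call. The largest drops are MED24 (-2.88), INTS3 (-2.53) and POLR2A (-2.41), and the largest rise is INTS10 (0.50).

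POLR2A fell furthest within the polymerase. It encodes the largest subunit, which forms the active site together with POLR2B and carries the C-terminal repeat domain that coordinates RNA processing. Its gene lies at chr17:7484366-7514616, plus strand, on GRCh38. POLR2A stood at 504, 424 and 414 CPM (counts relative to library size after TMM scaling) in DMSO replicates 1, 2 and 3 and at 97.3, 74.1 and 81.3 CPM in auxin replicates 1, 2 and 3. The groups were far apart, and the drop was 5.31-fold (log2 fold change -2.41, SE 0.13, adjusted p = 1.13e-05). POLR2B, the second largest subunit and the other side of the active centre, gave 274, 332 and 348 CPM in DMSO and 301, 378 and 389 CPM in auxin. These ranges overlapped, and POLR2B was not called (log2 fold change 0.16, SE 0.13, adjusted p = 0.326); with the replicate block its log2 fold change of 0.16 was called higher (adjusted p = 0.00128).

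The 250 bases before the start of POLR2A are shown because the gene made the largest drop of the polymerase. They come from RefSeq on GRCh38, and capitals mark GC boxes (GGGCGG on either strand), the motif that SP-family factors bind. Of all 35116 RefSeq promoter windows of this length, 42.6% hold at least 1 such match.
POLR2A promoter, chr17:7484116-7484365, plus strand: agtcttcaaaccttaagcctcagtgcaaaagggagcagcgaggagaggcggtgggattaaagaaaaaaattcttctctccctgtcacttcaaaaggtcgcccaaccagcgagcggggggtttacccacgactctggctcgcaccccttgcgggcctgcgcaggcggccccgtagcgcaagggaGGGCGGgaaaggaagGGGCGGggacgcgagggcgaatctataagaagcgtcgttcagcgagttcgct

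Other polymerase genes with lower RNA were spread over the enzyme. POLR2J, the partner of POLR2C in the heterodimer that starts assembly of the core, had 23.8, 26.3 and 27.3 CPM in DMSO and 7.84, 8.82 and 8.81 CPM in auxin. That was a 3.04-fold drop with no overlap (log2 fold change -1.60, SE 0.087, adjusted p = 1.21e-05). Near-identical copies of POLR2J exist: POLR2J2 was not called (log2 fold change -0.69, SE 0.31, adjusted p = 0.105), 2 entries named POLR2J3 were called lower, and the division of reads among them is an estimate. POLR2C itself was not called, at 96.4, 99.2 and 106 CPM in DMSO and 96.3, 104 and 110.4 CPM in auxin (log2 fold change 0.041, adjusted p = 0.664).

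POLR2E, the only one of the 5 subunits shared with RNA polymerases I and III that fell, had 56.3, 60.4 and 64.1 CPM in DMSO and 27.5, 24.99 and 26.3 CPM in auxin (log2 fold change -1.20, SE 0.070, adjusted p = 1.63e-05). The other 4 shared subunits, POLR2F, POLR2H, POLR2K and POLR2L, had log2 fold changes from -0.22 to 0.10, and none was called. POLR2H was called lower with the block (log2 fold change -0.22, adjusted p = 2.57e-04). It was also called lower without a filter on low counts (adjusted p = 0.046) and without DMSO replicate 1 (0.0221). POLR2L was called higher with upper-quartile factors (log2 fold change 0.22, adjusted p = 0.0395) and with GC-corrected offsets (log2 fold change 1.00, adjusted p = 0.00192). POLR2I, a small subunit linked to start-site choice and fidelity, gave 22.7, 19.3 and 19.9 CPM in DMSO and 15.3, 11.2 and 12.9 CPM in auxin (log2 fold change -0.65, SE 0.13, adjusted p = 0.00403). POLR2I shares 1058 bases with TBCB on the opposite strand, and its sign turned to a log2 fold change of 0.17 (adjusted p = 0.0583) with GC-corrected offsets.

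The stalk, formed by POLR2D and POLR2G, binds the emerging RNA. POLR2G fell from 36.5, 51.5 and 51.1 CPM in DMSO to 23.8, 31.7 and 34.5 CPM in auxin (log2 fold change -0.63, SE 0.18, adjusted p = 0.0207), while POLR2D was not called (log2 fold change 0.061, adjusted p = 0.398). Without DMSO replicate 2 or DMSO replicate 3 the call on POLR2G was lost, with an edgeR adjusted p of up to 0.0647. POLR2M encodes a protein that binds the polymerase and restrains it, and was the polymerase gene that rose. It gave 60.2, 65.9 and 62.97 CPM in DMSO and 73.2, 75.9 and 70.2 CPM in auxin, a 1.16-fold rise without overlap (log2 fold change 0.21, SE 0.058, adjusted p = 0.0178). That call was lost without DMSO replicate 1, DMSO replicate 3 or auxin replicate 2 (edgeR adjusted p up to 0.0769), and POLR2M shares 8117 bases on the same strand with GCOM1.

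**Figure D2:**
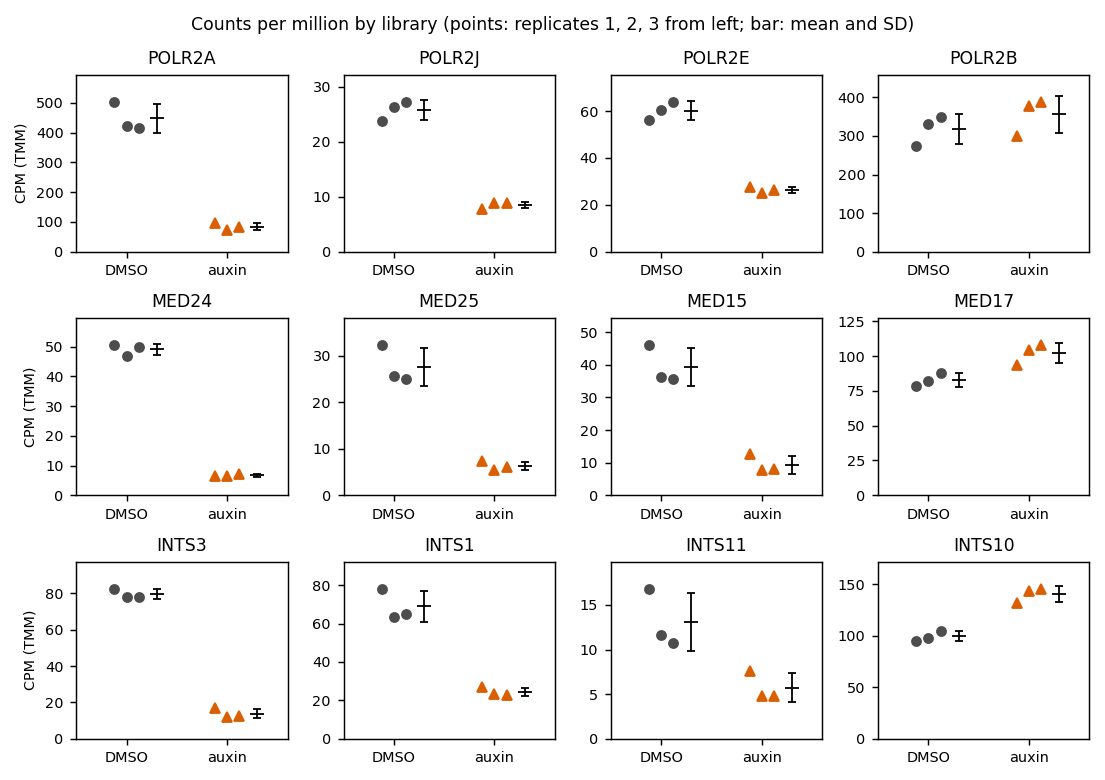
CPM after TMM scaling in each DMSO library (circles) and auxin library (triangles) for 12 members, with the mean and SD (n = 3) beside the points. POLR2A, POLR2J, POLR2E, MED24, MED25, MED15, INTS3, INTS1 and INTS11 are lower in every auxin library than in any DMSO library, MED17 and INTS10 are higher in every auxin library, and POLR2B overlaps.

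In the tail of Mediator, 4 of 5 genes fell, each by at least 2-fold. MED24, which works with MED1 and MED23 as a coactivator of nuclear receptors and other activators, made the largest drop of all 60 members. It had 50.6, 46.9 and 49.8 CPM in DMSO and 6.55, 6.32 and 7.10 CPM in auxin, which is 7.38-fold lower (log2 fold change -2.88, SE 0.073, adjusted p = 1.58e-06). MED25, a tail subunit bound by viral and cellular activators, had 32.3, 25.7 and 24.9 CPM in DMSO and 7.31, 5.53 and 5.98 CPM in auxin. Its highest auxin library was far below its lowest DMSO library, and it fell 4.40-fold (log2 fold change -2.14, SE 0.15, adjusted p = 3.19e-05). MED15, which receives activators such as the sterol-responsive SREBP factors, gave 46.1, 36.3 and 35.5 CPM in DMSO and 12.6, 7.59 and 8.08 CPM in auxin (log2 fold change -2.06, SE 0.21, adjusted p = 2.00e-04).

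MED16 joins MED24 and MED23 in the tail and fell from 21.1, 14.03 and 14.3 CPM in DMSO to 9.56, 6.44 and 6.43 CPM in auxin (log2 fold change -1.14, SE 0.22, adjusted p = 0.00402). MED16 lost its call under GC-corrected offsets (log2 fold change -0.061, adjusted p = 0.584). MED23, the remaining tail gene and the target of the factor ELK1, was not called, at 59.4, 62.8 and 61.04 CPM in DMSO and 59.96, 60.4 and 60.7 CPM in auxin (log2 fold change -0.017, SE 0.048, adjusted p = 0.8). Its ranges overlapped, in contrast to the other 4. Those 4 had 56.9% to 65.0% GC in their annotated transcripts, and MED23 had 41.7%. Of protein-coding genes tested, 50.7% fell at 55 to 60% GC, 61.7% at 60 to 65% and 63.0% at 65 to 70%. At 40 to 45% GC, 20.3% fell. The part of GC content in the tail was not tested.

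The promoter of MED24, the member with the largest drop, is printed from RefSeq on GRCh38 with its CCAAT boxes in capitals (CCAAT, or ATTGG on the other strand), the site bound by the factor NF-Y. Of all promoter windows, 32.01% hold this motif. The start that RefSeq gives lies within the longer GENCODE gene at chr17:40019097-40061215, minus strand, where 2926 bases overlap THRA on the opposite strand.
MED24 promoter, chr17:40054409-40054658, minus strand: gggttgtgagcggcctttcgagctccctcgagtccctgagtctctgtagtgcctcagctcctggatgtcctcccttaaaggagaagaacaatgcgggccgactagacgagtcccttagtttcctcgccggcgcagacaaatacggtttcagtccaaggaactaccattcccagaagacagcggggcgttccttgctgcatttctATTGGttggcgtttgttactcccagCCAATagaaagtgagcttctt

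In the head, which grips the polymerase, 2 of 7 genes fell and 2 rose. MED11, a small head subunit, had 2.74, 2.84 and 3.03 CPM in DMSO and 0.729, 0.845 and 0.885 CPM in auxin (log2 fold change -1.81, SE 0.13, adjusted p = 3.65e-05), and its partner MED22 fell by less (log2 fold change -0.80, SE 0.13, adjusted p = 0.00157). Both were below every DMSO library in all 3 auxin libraries. MED17, the central head subunit, rose from 78.6, 81.8 and 88.2 CPM in DMSO to 93.9, 105 and 108 CPM in auxin (log2 fold change 0.30, SE 0.074, edgeR adjusted p = 0.0119). MED17 shares 28152 bases on the same strand with the protein-coding gene AP001273.2. Transcripts annotated as protein-coding held a mean of 12.4% of the TPM of MED17 in DMSO and 14.2% in auxin. MED18, part of the movable jaw of the head, gave 24.4, 21.6 and 21.98 CPM in DMSO and 30.7, 26.7 and 28.4 CPM in auxin (log2 fold change 0.34, SE 0.081, adjusted p = 0.0108). Its partner MED20 was not called (log2 fold change 0.22, SE 0.11, adjusted p = 0.143). The rises were sensitive to single libraries: MED17 lost its call without DMSO replicate 2 or auxin replicate 3 (edgeR adjusted p up to 0.0597), and MED18 without DMSO replicate 2 or DMSO replicate 3 (up to 0.058). With the replicate block MED6 (log2 fold change 0.25, adjusted p = 1.31e-04) and MED20 (log2 fold change 0.21, adjusted p = 0.00128) were called higher and MED8 lower (log2 fold change -0.12, adjusted p = 0.0273).

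The middle module, which links head and tail to the kinase module, showed small changes in both directions. MED10 rose from 20.2, 17.9 and 19.3 CPM in DMSO to 25.4, 25.6 and 24.7 CPM in auxin (log2 fold change 0.40, SE 0.068, adjusted p = 0.00218). MED7, which pairs with MED21 in the hinge of the module, gave 9.67, 11.7 and 11.1 CPM in DMSO and 12.5, 14.1 and 15.6 CPM in auxin (log2 fold change 0.38, SE 0.11, adjusted p = 0.0246). MED21 went the other way, from 34.04, 35.04 and 34.5 CPM in DMSO to 28.3, 28.2 and 25.8 CPM in auxin (log2 fold change -0.33, SE 0.061, adjusted p = 0.00319). MED31 also fell (log2 fold change -0.47, SE 0.14, adjusted p = 0.0274). MED7 lost its call without DMSO replicate 1, DMSO replicate 3, auxin replicate 2 or auxin replicate 3 (edgeR adjusted p up to 0.0919), and MED31 without any 1 of DMSO replicates 2 and 3 and auxin replicates 1 and 2 (up to 0.0798).

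MED1, the subunit that binds nuclear hormone receptors, was not called, with 179, 186 and 193 CPM in DMSO and 187, 203 and 207 CPM in auxin (log2 fold change 0.10, SE 0.065, adjusted p = 0.253). The replicate block called MED1 higher (log2 fold change 0.10, adjusted p = 0.0179), but its sign was negative with GC-corrected offsets (log2 fold change -0.13). MED14, the backbone that holds head, middle and tail together, fell from 184, 179 and 176 CPM in DMSO to 147, 145 and 148 CPM in auxin (log2 fold change -0.29, SE 0.051, adjusted p = 0.00262). Every auxin library was below every DMSO library of MED14.

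At the border of head and tail, MED28 and MED27 rose and MED29 and MED30 were not called. MED28 gave 49.8, 49.5 and 47.2 CPM in DMSO and 68.4, 64.6 and 64.8 CPM in auxin, a 1.35-fold rise (log2 fold change 0.43, SE 0.053, adjusted p = 4.37e-04). It was the largest rise in Mediator, and MED28 overlaps FAM184B on the opposite strand over 4800 bases. MED27 rose by less (log2 fold change 0.25, SE 0.063, adjusted p = 0.0142) and lost its call without DMSO replicate 2, DMSO replicate 3 or auxin replicate 3 (edgeR adjusted p up to 0.0856). MED29, with no overlap between groups, was called lower with the block (log2 fold change -0.19, adjusted p = 0.00108) and without DMSO replicate 2 (adjusted p = 0.0425). With GC-corrected offsets and the block its sign turned and it was called higher (log2 fold change 0.12, adjusted p = 0.0328).

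In the kinase module MED12 fell, and the kinase and its cyclin were not called. MED12 switches on the kinase CDK8, and it had 15.5, 11.2 and 11.1 CPM in DMSO and 5.81, 2.70 and 2.72 CPM in auxin (log2 fold change -1.74, SE 0.32, adjusted p = 0.00338). Replicate 1 was the highest library of MED12 in each group, and the groups did not overlap. The call on MED12 ended with offsets corrected for effective length (log2 fold change -1.03, adjusted p = 0.104) and with limma on log2(TPM + 1) (log2 fold change -0.82, adjusted p = 0.197). CDK8 gave 51.6, 58.2 and 58.9 CPM in DMSO and 49.96, 55.6 and 54.6 CPM in auxin (log2 fold change -0.075, SE 0.073, adjusted p = 0.43). Its cyclin partner CCNC gave 142, 162 and 172 CPM in DMSO and 148, 176 and 167 CPM in auxin (log2 fold change 0.044, SE 0.10, adjusted p = 0.729). Both overlapped between groups. The block called CDK8 lower (adjusted p = 0.0462) but left CCNC uncalled (adjusted p = 0.3).

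Among the paralogs of the kinase module, MED12L fell from 16.5, 14.1 and 13.8 CPM in DMSO to 11.5, 10.2 and 10.4 CPM in auxin (log2 fold change -0.47, SE 0.10, adjusted p = 0.0062). MED13, which tethers the kinase module to the core, gave 466, 509.7 and 505 CPM in DMSO and 408, 455 and 437 CPM in auxin (log2 fold change -0.19, SE 0.070, adjusted p = 0.0597). The ranges of MED13 did not overlap, and the block called it lower (adjusted p = 5.25e-04). MED13L, its paralog, gave 431, 418 and 386 CPM in DMSO and 456, 432 and 418 CPM in auxin (log2 fold change 0.079, SE 0.069, adjusted p = 0.375), and the block called it higher (log2 fold change 0.080, adjusted p = 0.0433). CDK19, the CDK8 paralog that the symbols do not cover, fell (log2 fold change -0.88, SE 0.12, adjusted p = 6.72e-04).

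Integrator lost RNA of INTS3, INTS1, INTS11 and INTS6L and gained RNA of INTS10, INTS9, INTS14, INTS7 and INTS12. INTS3, which also forms the single-stranded DNA binding SOSS complex with NABP1 or NABP2, had 82.6, 77.8 and 78.2 CPM in DMSO and 16.8, 12.1 and 12.6 CPM in auxin. It was 5.76-fold lower (log2 fold change -2.53, SE 0.13, adjusted p = 1.04e-05), the second largest drop of all 60 members. INTS1, the largest subunit and part of the backbone, gave 78.2, 63.5 and 65.02 CPM in DMSO and 26.8, 23.4 and 22.96 CPM in auxin (log2 fold change -1.50, SE 0.10, adjusted p = 3.21e-05). The groups were well separated for both genes.

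In the cleavage module, INTS11 fell and INTS9 rose. INTS11 is the endonuclease, and had 16.8, 11.7 and 10.8 CPM in DMSO and 7.57, 4.81 and 4.75 CPM in auxin (log2 fold change -1.19, SE 0.24, adjusted p = 0.00498). INTS9, its inactive partner, rose from 22.4, 22.4 and 23.5 CPM in DMSO to 29.8, 32.1 and 34.2 CPM in auxin (log2 fold change 0.49, SE 0.070, adjusted p = 9.42e-04). INTS4, which holds the pair, was not called (log2 fold change 0.060, adjusted p = 0.525). INTS11 lost its call under GC-corrected offsets (log2 fold change -0.34, adjusted p = 0.0582).

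INTS10 and INTS14, 2 of the 3 genes of a separate arm with INTS13, were among the 5 Integrator genes that rose. INTS10 gave 95.4, 97.97 and 105 CPM in DMSO and 132, 144 and 146 CPM in auxin (log2 fold change 0.50, SE 0.067, adjusted p = 7.07e-04). INTS14 gave 65.8, 74.2 and 77.4 CPM in DMSO and 88.6, 102 and 109 CPM in auxin (log2 fold change 0.46, SE 0.10, adjusted p = 0.00559). INTS13 was not called (log2 fold change 0.24, adjusted p = 0.137). It was called higher with the block (adjusted p = 1.15e-04), with upper-quartile factors (0.0196), with length offsets (0.0378) and without auxin replicate 1 (0.03). INTS7, a backbone gene, rose from 84.4, 82.95 and 89.9 CPM in DMSO to 108, 116 and 119.8 CPM in auxin (log2 fold change 0.42, SE 0.064, adjusted p = 0.00131), as did INTS12 (log2 fold change 0.33, SE 0.073, adjusted p = 0.00716). The genes that rose belonged to 3 of the modules.

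The phosphatase module, which brings PP2A to the polymerase, held 1 gene that fell, the paralog INTS6L. INTS6 gave 100.4, 108 and 110.0 CPM in DMSO and 89.2, 102 and 99.6 CPM in auxin (log2 fold change -0.13, SE 0.071, adjusted p = 0.157); the block called it lower (adjusted p = 0.00338). INTS6L, its low-abundance paralog, fell from 6.69, 6.57 and 5.98 CPM in DMSO to 3.88, 3.27 and 2.82 CPM in auxin (log2 fold change -0.95, SE 0.14, adjusted p = 0.00101). INTS5 and INTS8 were called higher with the block (adjusted p = 0.0306 and 0.0106), at log2 fold changes of 0.10 and 0.11. With GC-corrected offsets INTS5 was called higher by more (log2 fold change 0.84, adjusted p = 2.58e-05). The block also called the backbone gene INTS2 lower (log2 fold change -0.10, adjusted p = 0.0271). C7orf26, the GENCODE 29 symbol of a subunit now named INTS15, lay outside the symbols used and rose (log2 fold change 0.54, SE 0.12, adjusted p = 0.00734).

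Promoters of INTS3 and INTS7 are set side by side because these genes moved in opposite directions. Both are 250 bases before the RefSeq start on GRCh38, and capitals mark CCAAT boxes (CCAAT or ATTGG), GC boxes (GGGCGG or CCGCCC) and ETS cores (CCGGAAG or CTTCCGG).
INTS3 promoter, chr1:153727800-153728049, plus strand: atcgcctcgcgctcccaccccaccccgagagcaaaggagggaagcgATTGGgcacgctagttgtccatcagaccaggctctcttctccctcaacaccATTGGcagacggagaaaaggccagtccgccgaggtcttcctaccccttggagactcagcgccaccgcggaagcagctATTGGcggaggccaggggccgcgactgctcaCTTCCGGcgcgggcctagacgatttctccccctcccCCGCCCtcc
INTS7 promoter, chr1:212035558-212035807, minus strand: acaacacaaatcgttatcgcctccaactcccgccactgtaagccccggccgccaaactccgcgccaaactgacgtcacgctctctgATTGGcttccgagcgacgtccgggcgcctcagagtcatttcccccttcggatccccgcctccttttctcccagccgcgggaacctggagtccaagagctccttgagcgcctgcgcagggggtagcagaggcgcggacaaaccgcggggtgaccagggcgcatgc
INTS3 holds all 3 kinds of motif and INTS7 holds the CCAAT box alone. INTS14, which rose more than INTS7, holds a GC box as well as a CCAAT box. The bases after the RefSeq starts of INTS3 and INTS7 were not found in a GENCODE transcript of the gene, unlike those of 38 of 44 windows. Of the 60 members, 44 had a promoter window in the RefSeq table. GC boxes were present in 10 of 14 members that fell, 4 of 9 that rose and 15 of 21 not called, and ETS cores in 5 of 14, 3 of 9 and 3 of 21. Among all windows, 42.6% hold a GC box and 8.52% an ETS core. No motif searched separated the members that fell from the rest in these counts, and no test was made.

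Levels between genes were compared per length, as TPM rescaled so that protein-coding genes sum to the same total in each library (coding-scaled TPM). In DMSO the members spanned 3.62 for INTS6L to 178 for INTS8. The summed level of the RNA polymerase II genes was 1418 ± 71.8 (SD, n = 3) in DMSO and 1041 ± 60.6 (SD, n = 3) in auxin. These sums did not overlap: every auxin library was below every DMSO library. The Mediator sum was 1361 ± 130.3 (SD, n = 3) in DMSO and 1234 ± 83.3 (SD, n = 3) in auxin, and the Integrator sum 762 ± 82.5 (SD, n = 3) in DMSO and 777 ± 56.1 (SD, n = 3) in auxin, each with overlapping libraries.

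Within Mediator the tail sum had no overlap between groups, at 129 ± 23.7 (SD, n = 3) in DMSO and 45.6 ± 10.04 (SD, n = 3) in auxin. The kinase module stood at 439 ± 39.3 (SD, n = 3) in DMSO and 426 ± 31.7 (SD, n = 3) in auxin. In Integrator the arm of INTS10, INTS13 and INTS14 stood at 268 ± 24.2 (SD, n = 3) in DMSO and 334 ± 20.7 (SD, n = 3) in auxin, with every auxin library above every DMSO library. These sums are given as values without a test.

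Ratios of RNA levels were taken between partners in the same complex. POLR2A was 0.988, 0.659 and 0.618 of the level of POLR2B in DMSO replicates 1, 2 and 3 and 0.208, 0.114 and 0.122 in auxin. Replicate 1 gave the highest ratio in each group, and the groups did not overlap. MED24 was 2.11, 2.004 and 2.18 times the level of its tail partner MED23 in DMSO and 0.317, 0.282 and 0.349 times in auxin. The endonuclease INTS11 was 1.38, 0.894 and 0.750 times the level of INTS9 in DMSO and 0.477, 0.303 and 0.287 times in auxin. The groups did not overlap for any of these 3 ratios. Each sets a gene called lower against a partner not called or called higher, so the separation largely repeats those calls. For MED12 and MED13, partners in the kinase module, the groups did overlap, with ratios of 0.0662, 0.0332 and 0.0437 in DMSO and 0.0396, 0.0196 and 0.0110 in auxin.

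Ratios between paralogs were taken in the same way. MED13L was 1.20 ± 0.0247 (SD, n = 3) times the level of MED13 in DMSO and 1.38 ± 0.0343 (SD, n = 3) times in auxin. INTS6L was 0.0614 ± 0.00525 (SD, n = 3) of the level of INTS6 in DMSO and 0.0311 ± 0.00611 (SD, n = 3) in auxin. The 2 groups did not overlap for either ratio. For INTS6L, called lower beside an uncalled INTS6, the separation largely repeats that call. MED12 relative to MED12L did overlap, at 1.31, 0.814 and 1.02 in DMSO and 1.03, 0.529 and 0.316 in auxin.

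**Figure D3:**
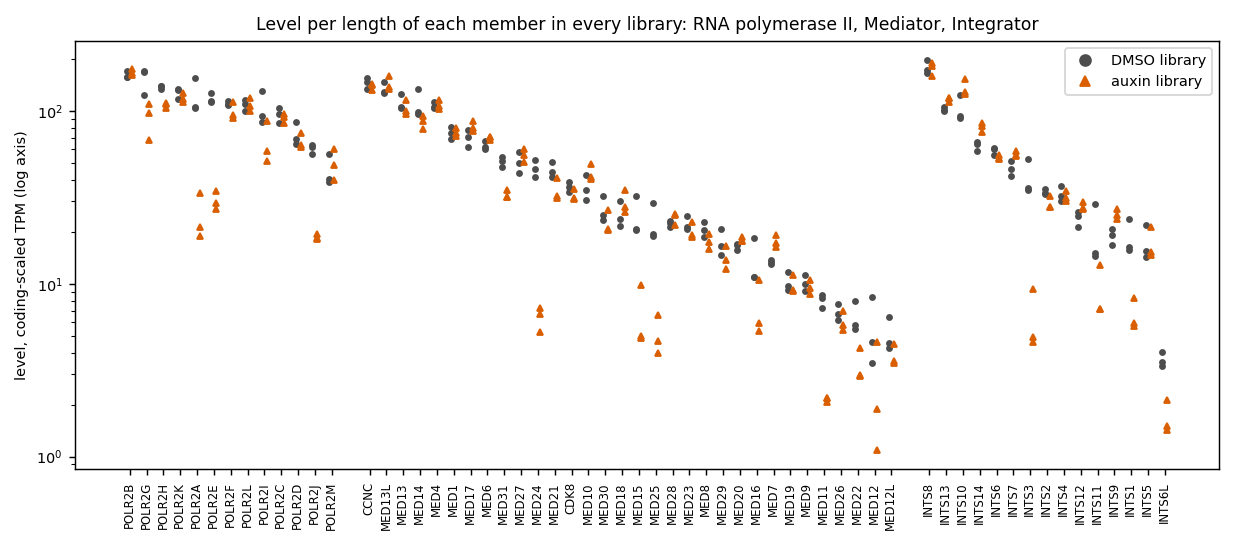
Level of each member in every library in coding-scaled TPM on a log axis, ordered within each complex by the DMSO mean, with circles for DMSO and triangles for auxin. POLR2A moves from a mean of 122 to 24.7 and MED24 from 46.6 to 6.40, while POLR2B and CCNC overlap.

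The transcript tables held another change in some genes that had fallen: a smaller part of what remained was assigned to protein-coding transcripts. The share of a gene's TPM in transcripts annotated as protein-coding could be tested in 56 members, with limma on arcsine square root values. It fell in 9 members and rose in 2, against 11.0% and 2.09% of the 9410 genes tested. All 9 were also among the genes with a lower level. For MED24 and INTS3, the members with the largest drops in level, the share was lower in mean but not called (limma adjusted p = 0.0792 and 0.401). How often the 2 go together among all genes tested was not counted. Transcript values are estimates that divide reads between overlapping transcripts.

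MED15 lost the most in percentage points, from 87.99% ± 1.01 (SD, n = 3) in DMSO to 49.9% ± 4.94 (SD, n = 3) in auxin (limma adjusted p = 4.87e-04). INTS11 went from 59.9% ± 5.18 (SD, n = 3) in DMSO to 35.3% ± 9.57 (SD, n = 3) in auxin (adjusted p = 0.0343), MED12 from 86.6% ± 3.42 (SD, n = 3) in DMSO to 68.2% ± 6.12 (SD, n = 3) in auxin (adjusted p = 0.0201) and MED25 from 98.2% ± 0.470 (SD, n = 3) in DMSO to 85.1% ± 3.47 (SD, n = 3) in auxin (adjusted p = 0.00201). POLR2G, INTS1, MED16, POLR2I and MED22 fell by less, by between 3.59 and 10.8 percentage points. POLR2I had a small protein-coding share from the start, at 12.1% ± 0.919 (SD, n = 3) in DMSO and 5.35% ± 0.739 (SD, n = 3) in auxin. MED22 stood at 100% in each DMSO library. Leaving out 1 library at a time kept the limma call on MED15, MED25, POLR2I and MED16 in all 6 fits. It ended the call on INTS11 without DMSO replicate 2, DMSO replicate 3 or auxin replicate 3 (limma adjusted p up to 0.12) and on MED12 without DMSO replicate 2, DMSO replicate 3, auxin replicate 1 or auxin replicate 3 (up to 0.0859). POLR2G lost it without DMSO replicate 2, DMSO replicate 3 or auxin replicate 2 (up to 0.0911), and INTS1 without DMSO replicate 2 (0.056). MED22 kept it without auxin replicate 1 alone (otherwise up to 0.0848).

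POLR2E and POLR2A were the exceptions in direction. For POLR2E the protein-coding share rose from 15.99% ± 2.12 (SD, n = 3) in DMSO to 52.99% ± 2.77 (SD, n = 3) in auxin (limma adjusted p = 3.01e-04). Transcript POLR2E-206, annotated as a target of nonsense-mediated decay and so not counted in that share, made up 54.96, 41.5 and 40.6% in DMSO and 22.8, 18.5 and 16.5% in auxin. The long protein-coding transcript POLR2E-213 made up 10.6, 8.31 and 8.77% in DMSO and 37.7, 34.7 and 35.6% in auxin (limma adjusted p = 4.20e-04). The level of POLR2E-213 was 10.8 ± 1.30 coding-scaled TPM (SD, n = 3) in DMSO and 10.9 ± 1.81 (SD, n = 3) in auxin. For POLR2A the tested share rests on minor transcripts, since POLR2A-209, its main transcript, is annotated as a processed transcript in GENCODE 29 and made up 96.2, 98.1 and 98.3% in DMSO and 78.1, 87.7 and 87.2% in auxin (limma adjusted p = 0.0112). Without DMSO replicate 2 or DMSO replicate 3 the limma adjusted p of POLR2A-209 reached 0.0528, and the protein-coding share of POLR2A was called in 1 of 6 fits, the one without auxin replicate 1 (otherwise up to 0.116). Counting protein-coding transcripts alone leaves POLR2A with a log2 fold change of 0.25 (edgeR adjusted p = 0.38) and POLR2E with -0.013 (edgeR adjusted p = 0.903), so both drops rest on transcripts annotated otherwise.

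Single transcripts were tested in the same way. Of 154 transcripts of 53 members, 16 gained and 12 lost share, where 8.28% and 7.36% of all 32959 transcripts tested did. With the replicate block 20 gained and 19 lost, and the shares of all transcripts called in that fit are not given here. The 28 transcripts belonged to 14 members, of which 12 had fallen in level and 2, MED13L and POLR2H, had not been called. How often a called transcript goes with a lower level among all genes was not counted. The only called transcripts of POLR2H and MED24, POLR2H-202 and MED24-202, lost their call in each of the 6 fits without 1 library (limma adjusted p 0.0515 to 0.137 and 0.0506 to 0.127). Retained-intron transcripts, whose annotated sequence keeps introns that other transcripts of the gene remove, gained share in 7 and lost it in 1 of 20 cases among the members. Among all genes they gained in 950 and lost in 139 of 3959. Besides the transcript with the largest change in each of 6 members, the transcripts described below were picked after their values were seen.

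In MED15 protein-coding transcripts lost share and retained-intron transcripts gained it. Transcript MED15-202, protein-coding, made up 35.9, 38.3 and 44.4% in DMSO and 14.4, 18.7 and 20.4% in auxin (limma adjusted p = 0.00539), and MED15-201 lost share as well. The retained-intron transcript MED15-229 made up 3.21, 3.04 and 2.78% in DMSO and 17.6, 19.4 and 20.00% in auxin (limma adjusted p = 5.80e-04). Another, MED15-231, rose from 4.78% ± 0.423 (SD, n = 3) to 13.7% ± 1.03 (SD, n = 3) of MED15. In coding-scaled TPM, MED15-229 stood at 1.04, 0.626 and 0.579 in DMSO and 1.73, 0.975 and 0.968 in auxin, so this transcript was not lower in value and the drop of MED15 lay in its other transcripts.

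In MED25, the full-length transcript MED25-201 made up 62.9, 52.04 and 53.8% in DMSO and 18.1, 17.5 and 11.9% in auxin (limma adjusted p = 0.00129). The 5-exon transcript MED25-205, also annotated as protein-coding, took the larger part in every auxin library, with 34.03, 45.3 and 43.6% in DMSO and 61.9, 69.7 and 67.7% in auxin (limma adjusted p = 0.00856). In MED16, MED16-204 went from 47.1% ± 11.5 (SD, n = 3) to 21.4% ± 1.95 (SD, n = 3), a call lost without DMSO replicate 3, auxin replicate 1, auxin replicate 2 or auxin replicate 3 (limma adjusted p up to 0.0881).

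INTS11-208, protein-coding, went down to a small part of INTS11, with 26.4, 31.1 and 32.04% in DMSO and 0.955, 3.42 and 2.24% in auxin (limma adjusted p = 6.37e-04). The retained-intron transcript INTS11-221 made up 1.35, 0.491 and 1.56% in DMSO and 15.3, 10.00 and 9.98% in auxin (limma adjusted p = 0.0048). In INTS3 the retained-intron transcript INTS3-207 made up 4.87, 4.30 and 3.42% in DMSO and 20.5, 18.8 and 22.2% in auxin (limma adjusted p = 9.27e-04). Its level was 2.56, 1.51 and 1.23 coding-scaled TPM in DMSO and 1.92, 0.918 and 1.02 in auxin, with overlap between the groups.

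In POLR2I a retained-intron transcript was higher in level as well as in share. POLR2I-205 made up 5.38, 4.71 and 4.72% in DMSO and 25.4, 27.4 and 28.4% in auxin (limma adjusted p = 3.70e-04), and stood at 6.99, 4.07 and 4.42 coding-scaled TPM in DMSO and 22.2, 14.04 and 16.6 in auxin. POLR2I-207, a transcript annotated for nonsense-mediated decay, went from 30.9% ± 8.72 (SD, n = 3) to 6.38% ± 2.19 (SD, n = 3). The groups did not overlap for either transcript. MED13L, whose level was not called, gained share of the protein-coding transcript MED13L-206, which made up 2.65, 2.98 and 2.56% in DMSO and 9.37, 10.9 and 9.80% in auxin (limma adjusted p = 0.00448).

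**Figure D4:**
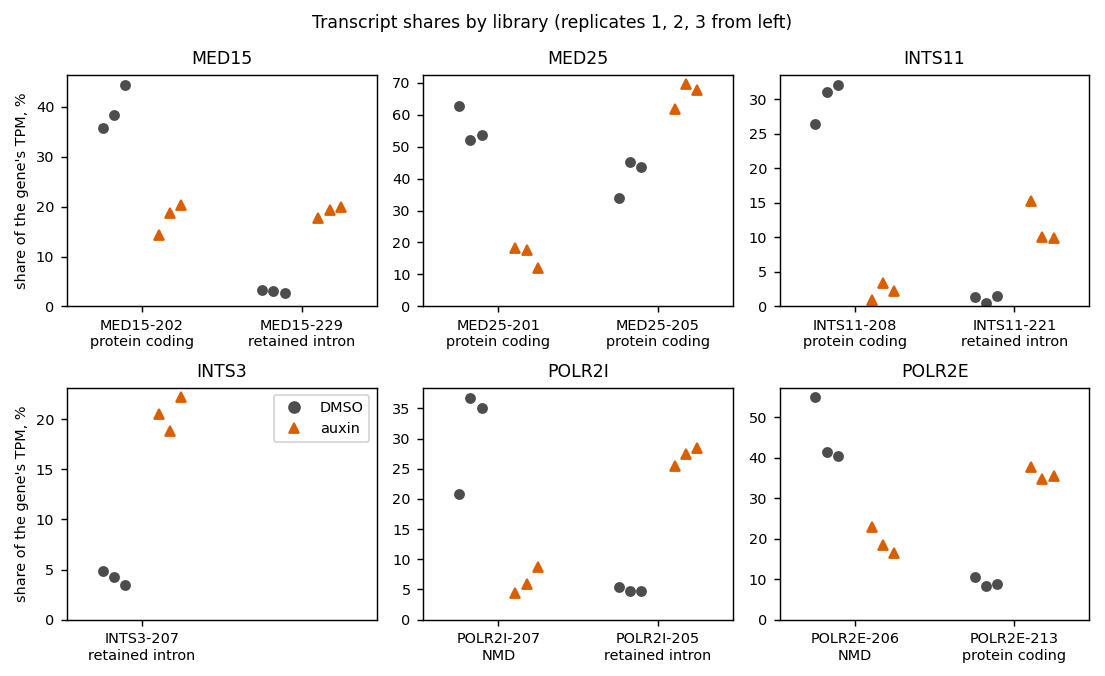
Share of the gene's TPM in percent for selected transcripts of MED15, MED25, INTS11, INTS3, POLR2I and POLR2E, in DMSO libraries (circles) and auxin libraries (triangles). Retained-intron transcripts of MED15, INTS11, INTS3 and POLR2I are higher in every auxin library, and MED25-201 makes up 11.9 to 18.1% in auxin against 52.0 to 62.9% in DMSO.

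The introns kept by these transcripts are shown at their splice sites, since the sites are where a kept and a removed intron differ in the RNA. Sequences were read from GENCODE 29 transcripts on GRCh38, 15 bases to each side of the junction. Capitals mark the first 6 intron bases at the 5′ splice site and the last 2 at the 3′ splice site. All introns listed begin with GT and end with AG, lie between coding bases of the gene, and are removed in at least 1 protein-coding transcript.
POLR2I intron at chr19:36114413-36114658, minus strand, 5′ splice site: attctgctctacgcgGTGAGCgccggggtc
POLR2I intron at chr19:36114413-36114658, minus strand, 3′ splice site: ctcgccctctcgtAGtgccggaactgtgat
POLR2I intron at chr19:36114714-36114797, minus strand, 5′ splice site: cttctgccaggaatgGTGAGGcggagggag
POLR2I intron at chr19:36114714-36114797, minus strand, 3′ splice site: tccccctccccacAGtaacaacatgctgta
INTS3 intron at chr1:153747071-153747278, plus strand, 5′ splice site: acctgccgtactcagGTAAGGccagaaaga
INTS3 intron at chr1:153747071-153747278, plus strand, 3′ splice site: ccctctttcctttAGttggtgtggttggta
INTS3 intron at chr1:153747364-153748688, plus strand, 5′ splice site: tgaagcagattgcagGTGAGTttgatggca
INTS3 intron at chr1:153747364-153748688, plus strand, 3′ splice site: cccttttgaaatcAGgtggagatgttacag
INTS11 intron at chr1:1319525-1320455, minus strand, 5′ splice site: ctgtgtgatcattagGTGGGTtcctgttgg
INTS11 intron at chr1:1319525-1320455, minus strand, 3′ splice site: gctgcgtccccctAGccacttccacctgga
INTS11 intron at chr1:1320530-1320995, minus strand, 5′ splice site: ggcttcaatgacgacGTGAGTcccttgggc
INTS11 intron at chr1:1320530-1320995, minus strand, 3′ splice site: ccacatccttcctAGcgacgcttccctgac
MED15 intron at chr22:20582968-20583112, plus strand, 5′ splice site: ctttaaacacacctgGTAAGTtgggcctga
MED15 intron at chr22:20582968-20583112, plus strand, 3′ splice site: gcctgtgtcctgcAGtgaaccccagctctg
MED15 intron at chr22:20583394-20584358, plus strand, 5′ splice site: agacccctcgaagcgGTGAGCtttgcccac
MED15 intron at chr22:20583394-20584358, plus strand, 3′ splice site: cctctctctctgcAGgtgtcccctgaagac
MED15 intron at chr22:20585268-20585727, plus strand, 5′ splice site: tgatctgcaagctggGTGAGTgtccagagg
MED15 intron at chr22:20585268-20585727, plus strand, 3′ splice site: ccttctgtgttgcAGatgacaaggacctcc
POLR2I-205 keeps 2 introns of 246 and 84 bases, INTS3-207 keeps 2 of 208 and 1325, and INTS11-221 keeps 2 of 931 and 466. MED15-231 keeps 6, of which 3 are shown. Introns of INTS3 had 42.8% and 43.5% GC, and the others between 57.9% and 71.8%. Read coverage of the introns was not analysed here.

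Members that fell and members that rose differed in base composition, as did other genes. The 20 genes that fell had a median GC content of 56.2% over their annotated transcripts, with 15 above 50%. The 12 that rose had a median of 45.2%, with 3 above 50%, and the 28 not called 45.4%, with 9. Protein-coding genes as a whole showed the same order, at 56.3% for those called lower and 46.8% for those called higher. Members that fell also had a median of 18 exons and a median mean intron length of 1464 bases, against 8 exons and 4127 bases for those that rose, and 8.5 exons and 2459 bases for those not called. Protein-coding genes called lower had 11 exons and 2049.6 bases, and those called higher 9 exons and 4654 bases.

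Between 60% and 65% GC, 6 of 8 members fell, among them INTS1, MED25, MED15 and POLR2E, where 61.7% of all protein-coding genes did. POLR2L, a small shared subunit, and MED26, the subunit that docks elongation factors, lay in the same range and were not called (log2 fold changes 0.10 and -0.051). With GC-corrected offsets both were called higher, MED26 with its sign turned (POLR2L: log2 fold change 1.00, adjusted p = 0.00192 and MED26: log2 fold change 0.78, adjusted p = 7.03e-04). Between 35% and 45% GC, 5 of 24 members fell, which is 20.8%, and 21.3% of protein-coding genes did. These 5 were INTS6L, MED31, MED12L, MED21 and MED14. POLR2A, MED24 and INTS3, the members with the largest drops, lay between 50% and 60% GC. They dropped further than the middle 50% of protein-coding genes of their GC range. So did MED11, MED12, MED25, MED15, INTS6L, MED31, MED12L, MED21 and MED14 in their ranges. By its definition, that middle part leaves genes below it in every GC range. With offsets corrected for GC content, 15 of the 20 drops and 5 of the 12 rises remained called, with POLR2A at -2.15, MED24 at -2.46 and INTS3 at -2.55 on the log2 scale. Other drops that remained called became smaller: INTS1 went to -0.42, MED25 to -1.22, MED15 to -1.28 and POLR2J to -1.02. The 5 drops not called with these offsets were POLR2E (log2 fold change -0.26, adjusted p = 0.158), POLR2I, MED16, MED22 and INTS11, and the 7 rises were INTS12, INTS14, MED27, MED17, MED7, MED10 and POLR2M. These offsets added 10 calls: INTS5, POLR2L and MED26 higher, and INTS6, INTS2, MED13, MED8, MED30, CDK8 and MED23 lower. The part that base composition plays in the changes was not tested beyond this.

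**Figure D5:**
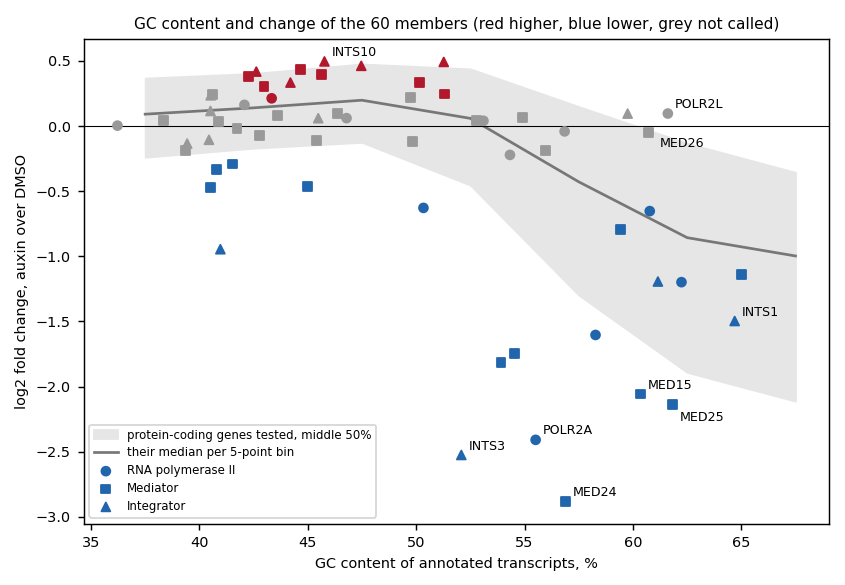
GC content of each member's annotated transcripts (percent) against its log2 fold change, auxin over DMSO, with the median (line) and middle 50% (band) of all protein-coding genes tested in bins of 5 points. Members above 55% GC lie mostly below 0. POLR2A, MED24 and INTS3 lie below the band, as do other members such as MED11, MED12 and MED25.

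The genes that act with these complexes were counted in the same fit, in which 26.9% of all genes and 33.4% of protein-coding genes were called lower and 25.4% and 27.8% higher. Of 27 factors of promoter-proximal pausing and elongation, 13 fell and 5 rose, or 48.1% and 18.5%. All 4 subunits of the pausing factor NELF fell, with NELFB (log2 fold change -2.84, SE 0.17, adjusted p = 2.01e-05) and NELFA (log2 fold change -2.33, SE 0.07, adjusted p = 1.99e-06) the furthest. SUPT5H, its partner in pausing, fell too (log2 fold change -1.61, SE 0.11, adjusted p = 2.74e-05), as did PAF1, the name-giving subunit of an elongation complex (log2 fold change -2.71, SE 0.12, adjusted p = 5.89e-06). CDC73, in the same complex as PAF1, rose (log2 fold change 0.34, SE 0.08, adjusted p = 0.008). The kinase CDK9, which releases the paused polymerase, fell (log2 fold change -0.60), while its cyclins CCNT1 and CCNT2 rose (log2 fold changes 0.29 and 0.48).

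Of 18 general transcription factor genes, 6 fell and 5 rose, or 33.3% and 27.8%, which is near the share of protein-coding genes. The 2 subunits of TFIIF went in opposite directions, with GTF2F1 lower (log2 fold change -1.42, SE 0.07, adjusted p = 8.10e-06) and GTF2F2 higher (log2 fold change 0.68, SE 0.05, adjusted p = 5.04e-05). In TFIIH, ERCC2 and GTF2H4 fell (log2 fold changes -1.46 and -1.32) and CCNH and GTF2H5 rose (log2 fold changes 0.65 and 0.70). Among 12 kinases and phosphatases of the C-terminal domain, 3 fell and 5 rose, and the phosphatase CTDSP1 made the largest change (log2 fold change -3.34, SE 0.18, adjusted p = 1.22e-05). The 5 partners of Integrator split 2 and 2: NABP1 rose and NABP2 fell (log2 fold changes 0.69 and -0.33).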

How the data were processed

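RNA was measured in 3 auxin and 3 DMSO libraries of HCT116. Each library has deposited gene and transcript tables whose columns, per the file headers, are an expected count with its posterior standard deviation, a TPM, an effective length and, for transcripts, the percent of the gene's abundance. The submitters' processing notes name bcl2fastq 2.20, STAR, DESeq2, GRCh38 and hg38. The annotation and the use of strand in counting are not given in the sources used here; the gene IDs matched GENCODE 29, whose coordinates and types are used. Without strand, reads of a gene and of an antisense partner cannot be told apart. The deposited expected counts are not normalized, and the deposited TPM, per the file headers, is scaled by length and to a common total. Counts were rounded to whole numbers. IDs without a GENCODE gene, 746 in all, took 0.000255% to 0.00111% of counts and were left out.

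Gene levels were compared in R 4.3.3 by the quasi-likelihood test of edgeR 4.0.16 (filterByExpr, TMM, Benjamini-Hochberg adjustment over 19725 genes, two-sided). All 60 members passed the filter, with at least 196 counts each in every library. The posterior standard deviation of a member's count was at most 1.34% of it, in POLR2J. Transcript shares were tested with limma 3.58.1 on the arcsine square root of the share, for genes with a mean TPM of at least 1 and transcripts with a mean share of 5% to 95%. Coding-scaled TPM, used for levels, is the deposited TPM divided by its sum over protein-coding genes and rescaled. Any pair of libraries within a group differed beyond counting noise, with chi-square over its degrees of freedom from 36.8 to 609. Deviations from the group means correlated at 0.65, 0.27 and 0.28 between libraries numbered 1, 2 and 3, across genes. The titles give these replicate numbers, which set the same-numbered pairs and the replicate block, although DMSO replicate 3 correlated more with auxin replicate 2 (0.31). The main edgeR and limma tests used the group alone, without pairing. P-values set the difference between the groups against the spread between these libraries.

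Alternatives were upper-quartile factors, DESeq2 1.42.0, no filter, limma on log2(TPM + 1) and log2(TPM + 0.1), the replicate block, leaving out each library, replicates 2 and 3 only, counts of protein-coding transcripts only, and offsets corrected for length or GC content. Named genes were 11 key subunits, 3 pairs of paralogs and, per complex, up to 4 members with the largest rise and the largest drop among those called with a mean CPM of at least 1. POLR2B, POLR2C, POLR2G, MED16, MED17, MED21, MED23 and other members named beyond that rule were picked after their values were seen, as were the sequences printed. The members and lists were chosen with earlier results of these data known. The tests were also run on simulated data with known changes, drawn as independent libraries without replicate pairing. The outcome is not given here, and no result rests on it.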

Additional observations from a re-analysis of the deposited data

How the results depend on the processing

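Of 510 alternative values of the named members, 428 kept their direction and side of the threshold, 51 lost the call, 15 gained one and 16 changed sign. Of 415 share differences 341 kept their call and 74 lost it, and of 180 counts 132 stayed within 1.5 times. DESeq2 gave 12 members higher and 20 lower. Members called higher numbered 20 with upper-quartile factors, 20 with the replicate block, 20 with GC-corrected offsets and the block, and 0 and 0 with limma on log2(TPM + 1) and log2(TPM + 0.1), which called 12 and 12 lower. For RNA polymerase II the number higher was 4 with upper-quartile factors, 2 with the block, 2 with replicates 2 and 3 only, 3 with GC-corrected offsets and the block, and 0 without a filter, with length offsets and in both limma fits, and the number lower was 3 with protein-coding transcripts only and 3 with GC-corrected offsets. For Mediator the number higher was 10 with the block, 10 with GC-corrected offsets and the block, 3 with GC-corrected offsets alone and 0 in both limma fits, and the number lower was 5 and 5 in the limma fits and 17 with GC-corrected offsets and the block. For Integrator the number higher was 8 with the block and 0 in both limma fits, and the number lower 7 with GC-corrected offsets and the block. The block kept every call on a member's level made without it and gave 19 member transcripts with a lower share. Leaving out 1 library gave 8 to 15 members higher and 18 to 21 lower: 0 to 1 and 4 to 6 in RNA polymerase II, 3 to 8 and 10 to 11 in Mediator, 5 to 6 and 4 in Integrator. It gave 1 to 3 members with a higher and 4 to 8 with a lower protein-coding share, and 9 to 16 transcripts with a higher and 7 to 12 with a lower share. Mediator had 3 higher when DMSO replicate 2, DMSO replicate 3 or auxin replicate 3 was left out. Lower protein-coding shares numbered 4 (DMSO replicate 2 left out), 5 (DMSO replicate 3) and 6 (auxin replicate 3), transcripts with a higher share 9 (DMSO replicate 2 or auxin replicate 1) and 10 (DMSO replicate 3), and transcripts with a lower share 7 (either of DMSO replicates 2 and 3). The sign of the log2 fold change turned for POLR2A with protein-coding transcripts only (0.25), for CDK8 with upper-quartile factors (0.046), for MED1 in both limma fits (-0.030 and -0.031) and with GC-corrected offsets without and with the block (-0.13 and -0.13), for MED13L with these offsets (-0.11 and -0.11) and for POLR2I with them (0.17 and 0.17), where the block called POLR2I higher. CCNC, never called, gave -0.11 and -0.12 in the limma fits, -0.044 and -0.043 with GC-corrected offsets, and -0.028 to 0.12 without 1 library. Length offsets ended the calls on MED12 (-1.03), MED12L (-0.29), MED14 (-0.23), MED28 (0.21), POLR2G (-0.65) and POLR2M (0.25), with the log2 fold change in brackets. The limma fits also ended the calls on 8 drops: INTS11, MED12, MED16, MED22, MED12L, MED21, MED14 and POLR2I. The cause of these changes was not tested. Apart from the replicate block at gene level, the shares of all genes called in these alternatives are not given here. Every member had at least 196 counts in each library, and 3 libraries a group limit the precision.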

Other observations

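RNA polymerases I and III, which make ribosomal and transfer RNA, share 5 subunits with RNA polymerase II and have others of their own. In the same edgeR fit, which called 27.8% of protein-coding genes higher and 33.4% lower, 5 of the 6 genes for polymerase I subunits rose, among them POLR1B (log2 fold change 0.96, SE 0.08, adjusted p = 8.70e-05) and CD3EAP (log2 fold change 0.91, SE 0.07, adjusted p = 4.15e-05), and POLR1A, the largest subunit, fell (log2 fold change -0.24, SE 0.06, adjusted p = 0.0149). Both subunits that polymerases I and III share with each other, POLR1C and POLR1D, rose (log2 fold changes 0.87 and 0.51). Of 11 genes for polymerase III subunits, 6 rose and 1 fell, with POLR3C the furthest up (log2 fold change 0.74, SE 0.12, adjusted p = 0.00153) and POLR3D the one that fell (log2 fold change -0.55, SE 0.06, adjusted p = 2.70e-04). The median log2 fold change was 0.59 over the polymerase I list and 0.31 over the polymerase III list, against 0.025 over all genes tested. A difference between these lists and the RNA polymerase II genes was not tested.

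Factors that assemble RNA polymerase II before it enters the nucleus changed in both directions, with 4 of 9 higher and 2 lower. URI1 (log2 fold change 0.79, SE 0.06, adjusted p = 7.18e-05) and GPN1 (log2 fold change 0.34, SE 0.07, adjusted p = 0.00598) rose, and RPAP1 (log2 fold change -2.04, SE 0.15, adjusted p = 4.23e-05) and RUVBL2 (log2 fold change -0.89, SE 0.06, adjusted p = 2.29e-05) fell. RUVBL1, the partner of RUVBL2 in a shared ring, rose (log2 fold change 0.58, SE 0.17, adjusted p = 0.023).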
